A study of Mus musculus with 18 samples.

Results

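Mouse sensory neurons are maintained by the glial cell line-derived neurotrophic factor (GDNF) family and by the neurotrophins, and 7 genes that encode receptors for these factors, Ret, Gfra1, Gfra2, Gfra3, Ntrk2, Ntrk3 and Ngfr, were examined across knockouts (KO) of 3 voltage-gated sodium channels. Members were taken as every probe set annotated to one of these genes alone, which gave 30 probe sets of 45037 on the array and 7 genes of 18193 that could be named. Ret had 2 probe sets, Gfra1 3, Gfra2 5, Gfra3 1, Ntrk2 8, Ntrk3 8 and Ngfr 3.

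RNA came from whole dorsal root ganglia (DRG, the clusters of sensory nerve cell bodies beside the spinal cord) of adult mice of both sexes, pooled over spinal levels, and each of the 18 samples was read on its own Affymetrix whole-genome mouse expression array. The 6 groups held 3 arrays each. In the Nav1.7 line, mice homozygous for a floxed Scn9a allele carried Cre recombinase driven by Advillin (Avil), a gene of peripheral sensory neurons, so the channel was removed from those neurons and not from the rest of the animal, whereas Nav1.8 KO (Scn10a) and Nav1.9 KO (Scn11a) mice were global nulls. Each KO group was set against littermates of its own line. The sources used here do not say whether each array held 1 animal, so p-values measure the spread between these arrays, which may in part be technical.

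Array medians lay between 6.33 and 6.36 on the log2 scale, and replicate arrays of a group correlated at 0.996 to 0.998. Scn10a fell by 1.57 in Nav1.8 KO (limma, adjusted p = 5.40e-05) and Scn11a fell by 1.85 in Nav1.9 KO (adjusted p = 7.13e-07). In Nav1.7 KO the Scn9a probe set differed by -0.06 and overlapped its littermates, and no source places that probe set in the deleted part, so it does not check the label. Avil, whose promoter drives Cre, fell by 0.64 in Nav1.7 KO. Xist, expressed from the inactive X chromosome, was at 11.97 or above on 7 arrays and at 5.65 or below on 11. Eif2s3y, a gene of the Y chromosome, was at 3.91 to 4.86 on those 7 arrays and at 9.20 to 9.45 on those 11. The 7 arrays with high Xist thus read as female and the 11 with low Xist as male. All 3 Nav1.7 littermate arrays were in the high class, as were 2 of 3 Nav1.7 KO and 2 of 3 Nav1.8 KO arrays, while all Nav1.8 littermates and all Nav1.9 arrays were in the low class. Sex was thus unbalanced between KO and littermates in the Nav1.7 and Nav1.8 lines.

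Ret is the receptor tyrosine kinase through which the GDNF family signals. Its ligands are first held by co-receptors anchored in the membrane, GFRα1 for GDNF, GFRα2 for neurturin and GFRα3 for artemin. Ntrk2 encodes TrkB, the receptor of brain-derived neurotrophic factor, Ntrk3 encodes TrkC, the receptor of neurotrophin-3, and Ngfr encodes the low-affinity receptor that all neurotrophins share. In adult DRG, Ret and Gfra2 are known from non-peptidergic nociceptors and from C-fibre low-threshold mechanoreceptors (C-LTMRs), Gfra3 from peptidergic nociceptors, Ntrk2 from lightly myelinated down-hair afferents and Ntrk3 from proprioceptors and other large myelinated neurons.

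Deletion of Nav1.7 from sensory neurons was accompanied by lower Ret, Gfra2 and Ntrk2 and higher Gfra3. These 4 of 7 receptor genes passed an adjusted p of 0.05, against 4.33% of all genes in the same comparison, and their changes were between 1.12-fold and 1.26-fold. Gfra1, Ntrk3 and Ngfr did not pass. The 7 genes were chosen with earlier results of these data known. Their brightest probe sets lay between the 83.5 and 99.1 percentiles of probe set brightness. Shares over all genes are thus given for scale and not as a test. In Nav1.8 KO none of the 7 genes passed by limma, where 0.0165% of all genes did, and 1 had an unadjusted p under 0.05, as did 8.09% of all genes. A one-way analysis of variance with the same adjustment also gave 0 in Nav1.8 KO. In Nav1.9 KO Ret passed, 1 of 7 against 0.473% of all genes, and 5 of 7 had an unadjusted p under 0.05, a level that 12.1% of all genes reached. In whole ganglia fewer cells of a type and less RNA per cell cannot be told apart.

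**Figure D1:**
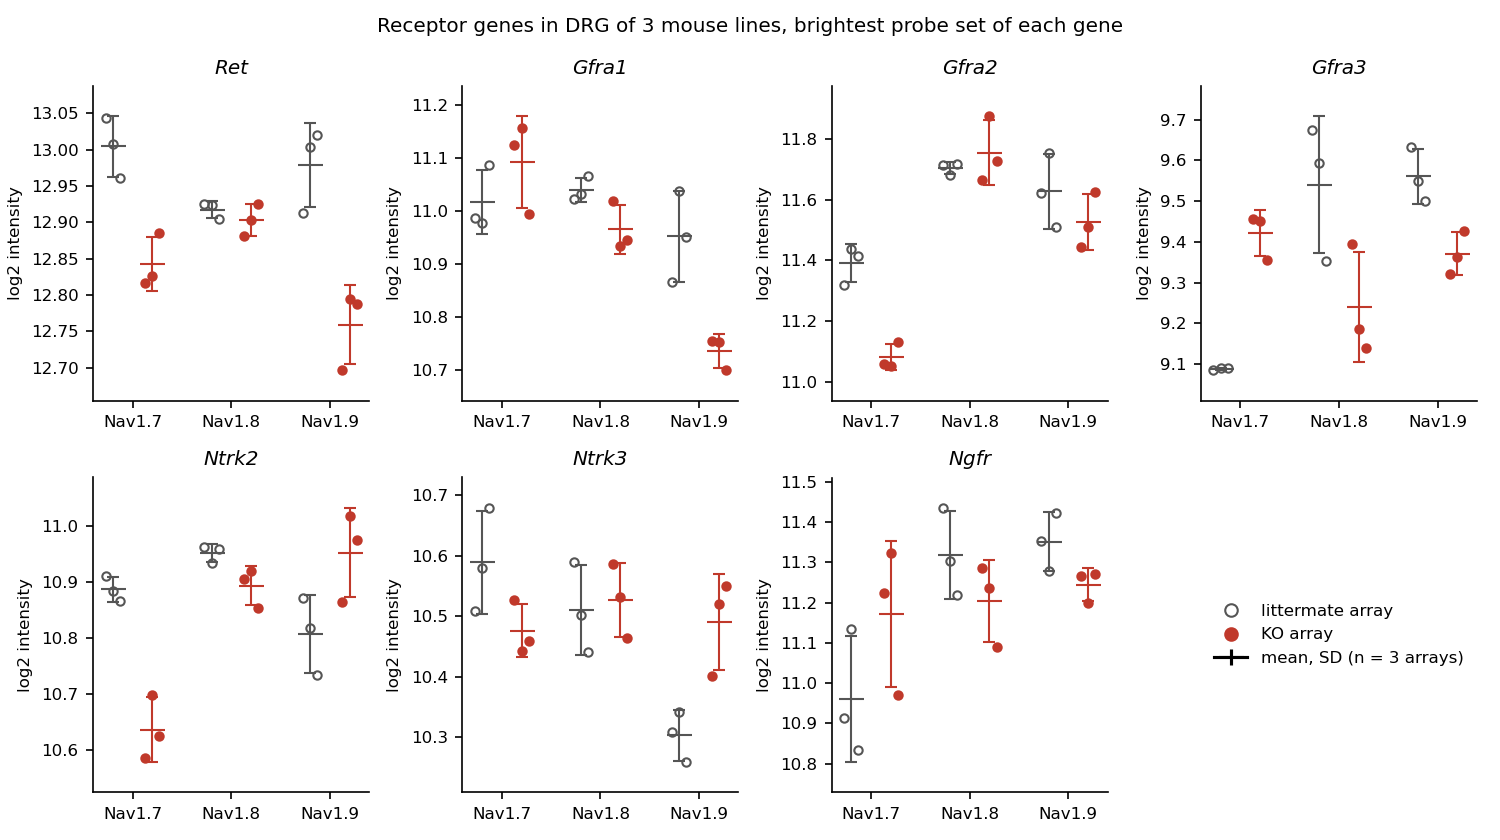
Log2 intensity of the brightest probe set of each receptor gene on each of 18 arrays, with littermates as open grey points, KO as filled red points, and bars for the mean and SD of 3 arrays; each panel has its own axis, which does not start at 0. The Nav1.7 KO arrays lie below their littermates for Ret, Gfra2 and Ntrk2 and above them for Gfra3, and the Nav1.9 KO arrays lie below theirs for Ret.

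Ret, the shared signalling receptor, read 13.04, 13.01 and 12.96 on the log2 scale in the Nav1.7 littermates and 12.82, 12.83 and 12.89 in Nav1.7 KO. In the Nav1.9 line it read 12.91, 13.00 and 13.02 in littermates and 12.70, 12.79 and 12.79 in KO. Every KO array of both lines lay below every littermate array of its line. Ret was 1.12-fold lower in Nav1.7 KO (log2 fold change -0.16, SE 0.0417, adjusted p = 0.0375) and 1.16-fold lower in Nav1.9 KO (log2 fold change -0.22, SE 0.0417, adjusted p = 0.0281). In the Nav1.8 line the littermates lay at 12.90 to 12.92 and the KO arrays at 12.88 to 12.93, and the groups overlapped (log2 fold change -0.01, 95% interval -0.10 to 0.07). Ordered by level, Nav1.9 KO was the lowest group and did not overlap Nav1.7 KO above it, while each further neighbour in the order overlapped the next.

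Both calls of Ret were lost when single arrays were left out. In the Nav1.7 line the call was lost without littermate 1 (adjusted p = 0.141), littermate 2 (0.102), KO 1 (0.125) or KO 2 (0.115), and also when the Xist class was a term (0.0818), when each array was centred on its median (0.0588) or when the line was fitted alone (0.185). In the Nav1.9 line it was lost without littermate 2 (0.0706), littermate 3 (0.119), KO 1 (0.115), KO 2 (0.0539) or KO 3 (0.058), with the line fitted alone (0.269) and with the mean of the Ret probe sets (0.154). The second Ret probe set, 1421359_at, was lower by 0.32 in Nav1.7 KO and by 0.23 in Nav1.9 KO. Neither Ret probe set passed when p-values were adjusted over all 45037 probe sets.

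Gfra2, the neurturin co-receptor, read 11.32, 11.44 and 11.41 in the Nav1.7 littermates and 11.06, 11.05 and 11.13 in Nav1.7 KO. The KO arrays were the 3 lowest of all 18. Gfra2 was 1.24-fold lower (log2 fold change -0.31, SE 0.0664, adjusted p = 0.0128). The Nav1.7 littermates themselves lay below every array of the other lines, which ran from 11.44 to 11.87. The KO arrays were thus low against a control group that was already the lowest of the 3. Nav1.7 littermates were also the only littermates in the high Xist class, so line and class cannot be told apart there. In Nav1.8 KO the difference was 0.05 (95% interval -0.09 to 0.19) and in Nav1.9 KO -0.10 (95% interval -0.24 to 0.04), and both pairs of groups overlapped. The call in Nav1.7 KO was lost without littermate 2 (adjusted p = 0.0585), littermate 3 (0.0511) or KO 2 (0.0507).

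The fall of Gfra2 was carried by the pair of bright probe sets, 1433716_x_at at -0.31 (adjusted p over all probe sets 0.0231) and 1459847_x_at at -0.42 (adjusted p = 0.00169). The suffix marks probe sets whose probes may also match other transcripts. The other 3, all dimmer, were at -0.16, -0.15 and -0.02 and did not pass. With probe sets of this kind left out, Gfra2 was represented by 1425579_at and the difference was -0.16 (adjusted p = 0.304).

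Gfra3, the artemin co-receptor, was the receptor gene that rose in Nav1.7 KO. It read 9.08, 9.09 and 9.09 in the Nav1.7 littermates and 9.46, 9.45 and 9.36 in KO. The increase was 1.26-fold (log2 fold change 0.33, SE 0.0760, adjusted p = 0.0192). The 3 Nav1.7 littermate arrays lay below every other array of the study. Nav1.7 KO arrays lay within the range of the Nav1.8 littermates, 9.35 to 9.68. Among littermates, line and Xist class cannot be told apart. The call was lost without littermate 1 (adjusted p = 0.0582), 2 (0.0573) or 3 (0.0566) and without KO 1 (0.0689) or KO 2 (0.0697).

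In the other lines Gfra3 was lower in KO, and neither difference passed. The Nav1.8 littermates read 9.68, 9.59 and 9.35 and the KO arrays 9.39, 9.19 and 9.14. Of the littermate arrays 1 lay below the highest KO array (log2 fold change -0.30, adjusted p = 0.383). All Nav1.8 littermates and KO 1 were in the low Xist class, and KO 2 and KO 3 in the high class. With the Xist class as a term in limma the difference was -0.21 (adjusted p = 0.9955). The Nav1.9 littermates read 9.63, 9.55 and 9.50 and the KO arrays 9.32, 9.36 and 9.43, with no overlap (log2 fold change -0.19, adjusted p = 0.321). Gfra3 had a single probe set, so no second measurement of it was at hand.

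Gfra1, the GDNF co-receptor, read 10.99, 10.98 and 11.09 in the Nav1.7 littermates and 11.12, 11.16 and 11.00 in KO, and the groups overlapped (log2 fold change 0.08, adjusted p = 0.528). In the Nav1.9 line it read 10.87, 11.04 and 10.95 in littermates and 10.76, 10.75 and 10.70 in KO. The Nav1.9 KO arrays were the 3 lowest of the 18, and the difference of -0.22 (SE 0.0525) did not pass (adjusted p = 0.0833). In the Nav1.8 line the difference was -0.07, with the KO arrays just below the littermates and an adjusted p of 0.748. The other Gfra1 probe sets differed by -0.52 and -0.10 in Nav1.9 KO and did not pass.

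Ntrk2, which encodes TrkB, read 10.91, 10.88 and 10.87 in the Nav1.7 littermates and 10.58, 10.70 and 10.62 in KO. The KO arrays were the 3 lowest of the 18. Ntrk2 was 1.19-fold lower (log2 fold change -0.25, SE 0.0479, adjusted p = 0.00575), and the call held without any 1 of the 6 arrays and was lost with the line fitted alone (adjusted p = 0.0657). In Nav1.9 KO it read 10.86, 11.02 and 10.98 against 10.87, 10.82 and 10.73 in littermates, overlapping by 1 array (log2 fold change 0.15, adjusted p = 0.227). In Nav1.8 KO it read 10.91, 10.92 and 10.85 against 10.96, 10.93 and 10.96, without overlap and without passing (log2 fold change -0.06, adjusted p = 0.787).

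The 8 Ntrk2 probe sets did not move as a block. In Nav1.7 KO 1458622_at fell by 0.25 (adjusted p over all probe sets 0.0135) and 1437560_at by 0.32 (adjusted p = 0.0287), and 1435305_at was at -0.23 (adjusted p = 0.201). By contrast 1435196_at and 1420838_at, at the 87.8 and 86.8 percentiles of probe set brightness, were at 0.04 and 0.03. In Nav1.9 KO the first 3 were at 0.15, 0.22 and 0.29 and the latter pair at -0.12 and -0.13, none of them past the threshold. Over the 18 arrays 1458622_at and 1437560_at correlated at 0.83, and 1435305_at and 1435196_at at -0.57, a description over arrays that share the group structure. Which transcript of Ntrk2 each probe set reads was not analysed here. With the mean of all Ntrk2 probe sets in place of the brightest, the difference in Nav1.7 KO was -0.13 (adjusted p = 0.0765).

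**Figure D2:**
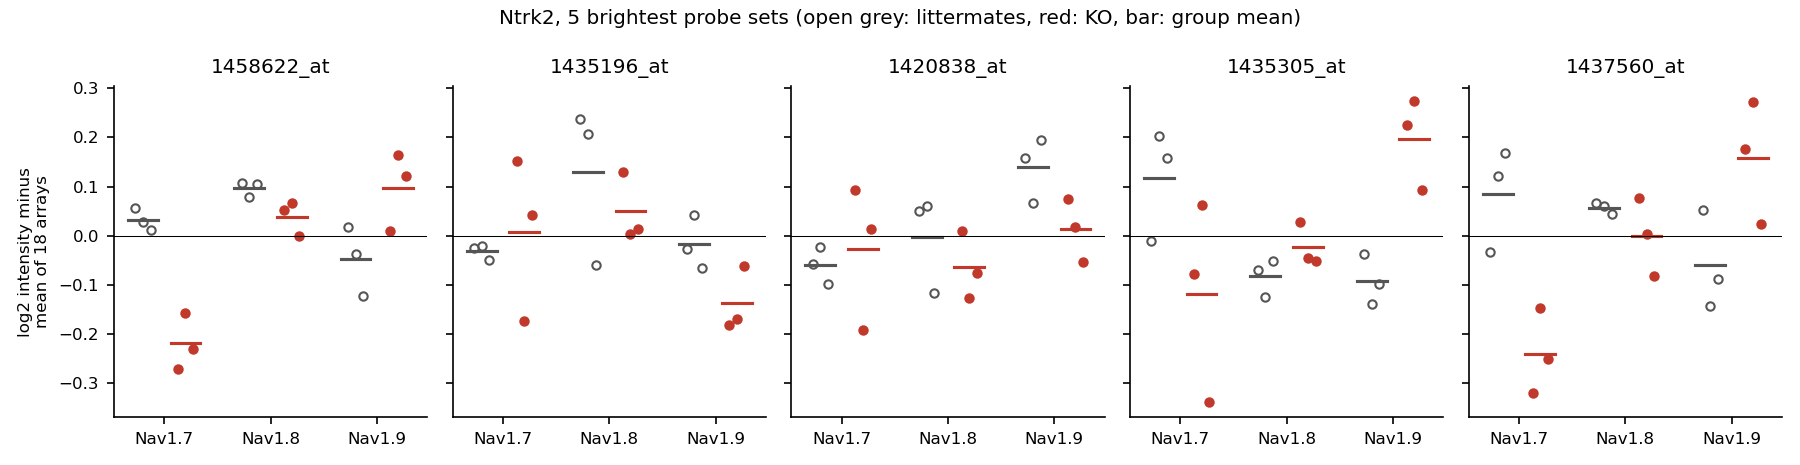
The 5 brightest Ntrk2 probe sets on each of 18 arrays, as log2 intensity minus the mean of the 18 arrays, with open grey points for littermates, red points for KO and a bar at each group mean of 3 arrays. In the Nav1.7 line KO lies below littermates on 1458622_at and 1437560_at, by 0.25 and 0.32, and at about the same level on 1435196_at and 1420838_at.

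RUNX1, a transcription factor of non-peptidergic and C-LTMR neurons, binds DNA through a core written TGTGGT. Its gene, Runx1, was 1.74-fold lower in Nav1.7 KO (log2 fold change -0.80, adjusted p = 0.00188), at 10.56, 10.50 and 10.43 in littermates and 9.85, 9.69 and 9.53 in KO. The Nav1.7 littermates were the high group of the study. Nav1.7 KO arrays lay at the level of the other lines' littermates, 9.47 to 9.71 for Nav1.8 and 9.67 to 10.005 for Nav1.9. Between these littermate groups, line and Xist class cannot be told apart. RefSeq promoter windows, 250 bases before to 50 after a start site on GRCm38.p6, were matched for 3 of the 7 genes, Ntrk2, Gfra1 and Ngfr. The Ntrk2 window held the 6 letters once, 234 bases before the start site, and the Gfra1 and Ngfr windows held them on neither strand, where 16.8% of 32851 promoter windows held them on either strand. The first 153 bases of the Ntrk2 window are shown because they hold the match and Ntrk2 is the matched gene that fell by its brightest probe set. They end where the gene's annotation begins, upstream of the start site that the window was built on. The stretch is chr13:58806319-58806471 on the plus strand, with the 6 letters in capitals, a match of letters and not a measured binding site. Whether RUNX1 acts on Ntrk2 was not tested.
Ntrk2: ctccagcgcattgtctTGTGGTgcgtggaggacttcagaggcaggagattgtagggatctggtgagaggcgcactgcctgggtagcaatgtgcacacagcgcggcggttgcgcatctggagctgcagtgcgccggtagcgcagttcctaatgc

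Ntrk3, which encodes TrkC, read 10.51, 10.58 and 10.68 in the Nav1.7 littermates and 10.53, 10.44 and 10.46 in KO, with overlap (log2 fold change -0.11, adjusted p = 0.340). In the Nav1.9 line the littermates, at 10.31, 10.34 and 10.26, lay below every other array of the study, and the KO arrays read 10.40, 10.52 and 10.55. This difference of 0.19 (SE 0.0561) did not pass (adjusted p = 0.175). In Nav1.8 KO the difference was 0.02 (95% interval -0.10 to 0.14). The other 7 Ntrk3 probe sets ran from -0.27 to 0.05 in Nav1.7 KO and from -0.28 to 0.04 in Nav1.9 KO, and none passed in any line.

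Ngfr, the low-affinity neurotrophin receptor, read 10.91, 11.14 and 10.83 in the Nav1.7 littermates and 11.22, 11.32 and 10.97 in KO. The groups overlapped and the difference of 0.21 (SE 0.0914) did not pass (adjusted p = 0.254). The Nav1.7 littermates were the lowest group for Ngfr, as they were for Gfra3 and, among littermates, for Gfra2. As the only littermates in the high Xist class, they differ from the others in both line and class. The 3 Ngfr probe sets differed by 0.15 to 0.21 in Nav1.7 KO and by -0.32 to -0.11 in Nav1.9 KO, none passing. In Nav1.8 KO the brightest Ngfr probe set differed by -0.11 (95% interval -0.31 to 0.08).

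**Figure D3:**
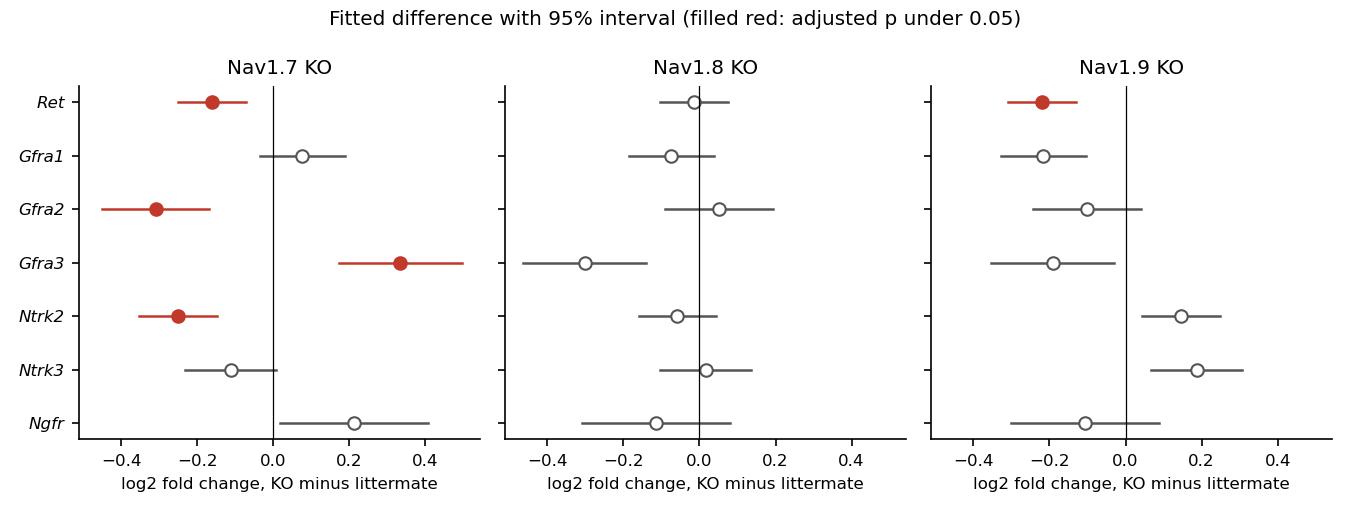
Fitted log2 fold change, KO minus littermate, of the 7 receptor genes in each line, with 95% intervals from the fit to all 18 arrays and filled red points where the adjusted p was under 0.05. The 4 genes that pass in the Nav1.7 panel are Ret, Gfra2, Gfra3 and Ntrk2, the only filled point of the Nav1.9 panel is Ret, and the Nav1.8 panel has none.

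Over the 7 genes the median log2 fold change was -0.11 in the Nav1.7 line, -0.06 in the Nav1.8 line and -0.11 in the Nav1.9 line, beside 0.0081, -0.014 and 0.0024 over all genes. KO and littermate arrays did not overlap for 4 of 7 genes in the Nav1.7 line, 2 in the Nav1.8 line (Gfra1 and Ntrk2) and 5 in the Nav1.9 line. The share of all genes without overlap was 20.4% in the Nav1.7 line, 13.8% in the Nav1.8 line and 18% in the Nav1.9 line.

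At the level of probe sets 5 of 30 passed in Nav1.7 KO, 1 higher (Gfra3) and 4 lower (2 of Gfra2 and 2 of Ntrk2), beside 2.27% of all probe sets. In Nav1.8 KO 0 of 30 passed by limma, beside 0.00666%, and 2 had an unadjusted p under 0.05, as did 8.16% of all probe sets. In Nav1.9 KO 0 of 30 passed, beside 0.242%, and 13 had an unadjusted p under 0.05, as did 10.4% of all probe sets. These 5 lay between the 81.1 and 96 percentiles of brightness.

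**Figure D4:**
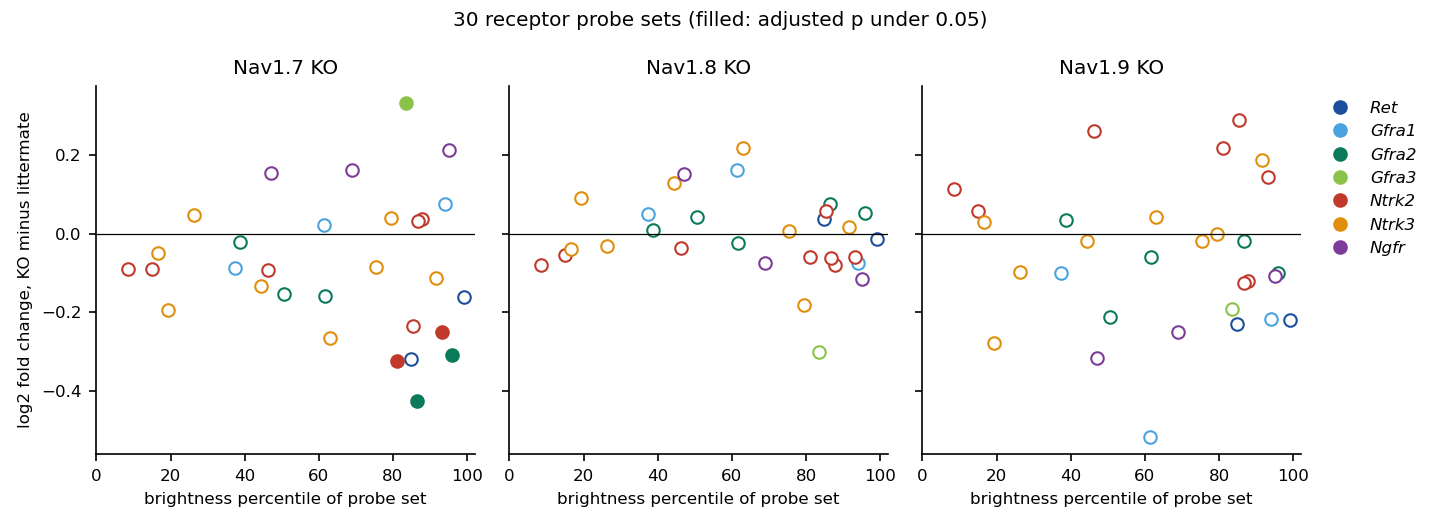
Log2 fold change, KO minus littermate, of the 30 receptor probe sets in each line against the percentile of each probe set's mean log2 intensity among all probe sets, coloured by gene and filled where the adjusted p over all probe sets was under 0.05. The 5 filled points are in Nav1.7 KO, 4 below 0 and 1 above.

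The KO effect itself was compared between lines, a test that asks whether a receptor moved differently and not only whether it passed in one line. For Gfra3 the effect in Nav1.7 KO exceeded that in Nav1.8 KO by 0.63 (SE 0.108, adjusted p = 0.00444) and that in Nav1.9 KO by 0.52 (SE 0.108, adjusted p = 0.0128). For Ntrk2 the effect in Nav1.7 KO was below that in Nav1.9 KO (difference -0.40, SE 0.0677, adjusted p = 0.00378). For Gfra1 the Nav1.7 effect was above the Nav1.9 effect by 0.29 (SE 0.0742, adjusted p = 0.0463). These comparisons share the Nav1.7 arrays. The Gfra3 and Ntrk2 differences against Nav1.9 held without any 1 of the 12 arrays involved, as did the Gfra3 difference against Nav1.8, which was lost when the Xist class was a term (0.50, adjusted p = 0.104). The Gfra1 difference was lost without any 1 of 9 of its 12 arrays (adjusted p 0.0679 to 0.105), those other than Nav1.7 littermate 3, Nav1.7 KO 3 and Nav1.9 littermate 1.

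On the separate probe sets the Ntrk2 difference between Nav1.7 and Nav1.9 was -0.40 for 1458622_at (adjusted p over all probe sets 0.00923), -0.54 for 1437560_at (adjusted p = 0.0127) and -0.52 for 1435305_at (adjusted p = 0.0333). The other 5 Ntrk2 probe sets did not pass. The Gfra2 probe set 1459847_x_at fell further in Nav1.7 KO than it moved in Nav1.8 KO (difference -0.50, adjusted p = 0.0143) or in Nav1.9 KO (difference -0.41, adjusted p = 0.0374). With Gfra3, 2 of 30 receptor probe sets differed between Nav1.7 and Nav1.8, beside 1.09% of all probe sets, and 5 of 30 between Nav1.7 and Nav1.9, beside 1.63%. Between Nav1.8 and Nav1.9 0 of 30 passed by limma, beside 0.0244%, with 8 at an unadjusted p under 0.05, a level that 8.59% of all probe sets reached.

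In all, 1 of 7 receptor genes differed between Nav1.7 and Nav1.8, beside 2.15% of all genes, and 3 of 7 between Nav1.7 and Nav1.9, beside 2.82%. Between Nav1.8 and Nav1.9 0 of 7 passed by limma, beside 0.0385%, and 3 had an unadjusted p under 0.05, as did 9.04% of all genes. The Ret effects of Nav1.7 and Nav1.9 differed by 0.06 (95% interval -0.07 to 0.18). The fall of Gfra2 in Nav1.7 KO against the value in Nav1.8 KO did not pass (difference -0.36, adjusted p = 0.0624), and passed without Nav1.8 KO 1 (0.042). The Ntrk3 difference between Nav1.7 and Nav1.9 did not pass either (difference -0.30, adjusted p = 0.0563), and passed without Nav1.7 littermate 1 (0.0383) or Nav1.9 KO 1 (0.0327).

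The other genes of these pathways were taken from a list of 63, of which 51 were measured: ligands, other receptors, adaptors with signalling enzymes, and inhibitors. In Nav1.7 KO 2 were higher, 4 lower and 45 did not pass, where 4.33% of all genes passed. In Nav1.8 KO 0 of 51 passed by limma, where 0.0165% of all genes did. Of the 51, 1 had an unadjusted p under 0.05, as did 8.09% of all genes. In Nav1.9 KO 2 were lower and 49 did not pass, where 0.473% of all genes passed. The median log2 fold change of the list was 0.04, -0.0074 and 0.0093 in the 3 lines, beside 0.0081, -0.014 and 0.0024 over all genes.

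Among the 6 ligands measured (Bdnf, Ntf5, Gdnf, Nrtn, Artn and Pspn) Bdnf, whose product binds TrkB, moved in opposite directions in the Nav1.7 and Nav1.9 lines. It read 9.62, 9.73 and 9.49 in the Nav1.7 littermates and 10.03, 10.10 and 10.43 in KO, a rise of 1.49-fold (log2 fold change 0.57, SE 0.134, adjusted p = 0.0224). In the Nav1.9 line it read 10.45, 10.10 and 10.66 in littermates and 9.76, 9.73 and 9.48 in KO, a fall of 1.68-fold (log2 fold change -0.75, SE 0.134, adjusted p = 0.0188). The Nav1.9 littermates were the high littermate group, against 9.49 to 9.73 for Nav1.7 and 9.58 to 9.83 for Nav1.8 littermates. The Nav1.9 KO arrays, at 9.48 to 9.76, lay at the level of the littermates of these other lines. KO and littermate arrays were separate in both the Nav1.7 and the Nav1.9 line, and the effects differed by 1.32 (limma, adjusted p = 9.42e-04). Both calls were lost without any 1 of 3 arrays. In the Nav1.7 line the adjusted p was 0.0619 without littermate 1, 0.0926 without littermate 3 and 0.085 without KO 3, and in the Nav1.9 line 0.0779, 0.0953 and 0.0942 without the arrays of the same names.

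The other 5 ligands did not pass in any line. Gdnf lay between 3.93 and 4.25 on all 18 arrays and Artn between 4.34 and 4.79. Nrtn, the ligand of GFRα2, lay between 7.25 and 7.45, and its KO differences were 0.02, 0.0018 and 0.02 in the 3 lines. These ligands are known mostly from tissues that the sensory fibres reach.

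Of the 5 other receptors measured (Gfra4, Sort1, Sorcs2, Ncam1 and Gas1) 1 passed. Ncam1, an adhesion molecule that can also bind GDNF with GFRα1, fell in Nav1.7 KO (log2 fold change -0.20, SE 0.0460, adjusted p = 0.0226), a call lost without littermate 1 (0.105), KO 2 (0.0899) or KO 3 (0.0777) and with the Xist class as a term (0.0575). Among the 28 adaptors and signalling genes Gab1, a docking protein of receptor tyrosine kinases, rose in Nav1.7 KO (log2 fold change 0.28, adjusted p = 0.0106) and Dok4, a docking protein that binds RET, fell (log2 fold change -0.22, adjusted p = 0.0254). In Nav1.9 KO Shc1, an adaptor of Trk receptors and RET, fell by 0.43 (adjusted p = 0.0156). Gab1 was lost without littermate 3 (0.0528) or KO 1 (0.0548), Dok4 without littermate 2 (0.103), littermate 3 (0.0678) or KO 1 (0.112), and Shc1 without littermate 3 (0.0776), KO 1 (0.0673) or KO 3 (0.0742).

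Among the 12 inhibitors and feedback genes 2 fell in Nav1.7 KO. Spry2, an inhibitor of the kinase cascade below these receptors, fell by 0.24 (adjusted p = 0.0159), and was lost without littermate 2 (0.079) or KO 2 (0.0751). Dusp6, a phosphatase that inactivates ERK, fell by 0.51 (adjusted p = 0.0475), although its KO and littermate arrays overlapped, and was lost without littermate 2 (0.115), littermate 3 (0.189), KO 1 (0.172) or KO 2 (0.191) and with the Xist class as a term (0.108).

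**Figure D5:**
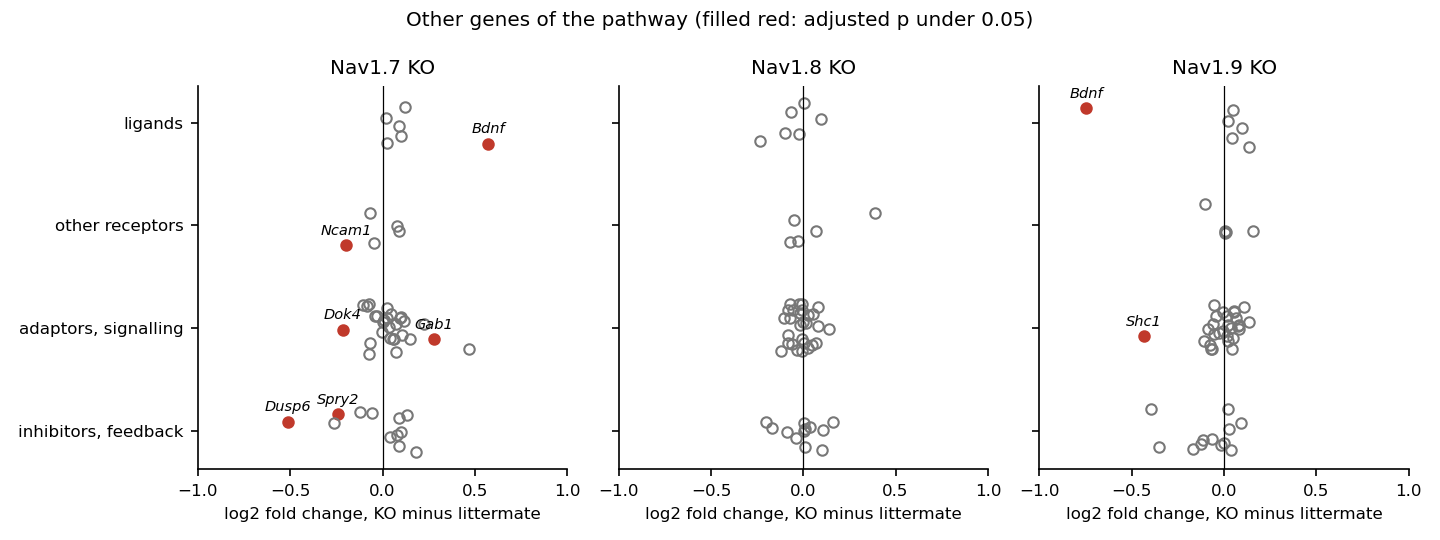
Log2 fold change, KO minus littermate, of the 51 measured pathway genes other than the 7 receptors, by role and line, each point 1 gene, filled red and named where the adjusted p was under 0.05; vertical scatter within a role has no meaning. Of these 6 pass in Nav1.7 KO and 0 in Nav1.8 KO, while Bdnf and Shc1 are lower in Nav1.9 KO.

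Markers of the other cell types and neuron classes of the ganglion were read beside the receptors, from lists chosen with earlier results of these data known. Over all genes 4.33% passed in Nav1.7 KO. In Nav1.7 KO all 4 measured C-LTMR markers fell, with a median of -1.07 and list means of 8.12 to 8.26 in KO against 9.34 to 9.50 in littermates. They included Th, tyrosine hydroxylase (log2 fold change -2.26), P2ry1 (-1.19) and Zfp521 (-0.67). Of 8 non-peptidergic markers 5 fell (median -0.32, list means 10.92 to 11.08 against 11.29 to 11.38), among them Prkcq (-0.89) and Cd55 (-0.49). Of 7 peptidergic markers 3 rose, Trpv1 (0.61), Tac1 (0.37) and Adcyap1 (0.31), and 4 did not pass, with a median of 0.22 and list means of 10.38 to 10.47 against 10.17 to 10.25.

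Of 11 markers of myelinated neurons, the class of Ntrk2 and Ntrk3, 1 fell in Nav1.7 KO (Necab2, -0.44) and 10 did not pass. Counts of 1 marker that passed in Nav1.7 KO stand, in this paragraph, beside 4.33% of all genes. Of 11 pan-neuronal markers 1 fell (Syt1, -0.17), with list means of 12.28 to 12.31 in KO and 12.35 to 12.37 in littermates. For cells other than neurons, Fabp7 of 8 satellite glia markers rose by 0.36, Apod of 8 fibroblast markers by 0.19 and Adgre1 of 10 macrophage markers by 0.37, and none of 8 Schwann cell markers or of 8 endothelial markers passed. The macrophage list mean ran from 7.28 to 7.71 in Nav1.7 KO and from 6.93 to 7.27 in its littermates. In Nav1.7 KO 6 of 11 pan-neuronal, 6 of 10 macrophage and 4 of 8 endothelial markers had an unadjusted p under 0.05. Of the myelinated neuron, satellite glia and fibroblast lists 1 marker each had such a p, and of the Schwann cell list 0. The share of all genes at that level was 16.3%. In Nav1.8 KO no marker of any list passed, where 0.0165% of all genes did. In Nav1.9 KO 1 did, the deleted Scn11a itself, where 0.473% of all genes passed. Of 7 peptidergic markers 5 had an unadjusted p under 0.05 in Nav1.8 KO, beside 8.09% of all genes. Their median was -0.15, with list means of 10.24 to 10.39 against 10.41 to 10.53 in littermates. In Nav1.9 KO 1 of 7 had such a p, beside 12.1% of all genes. The median there was -0.16, with list means of 10.34 to 10.40 against 10.44 to 10.63. The part of the marker shifts of any line in its receptor differences, such as the falls of Ret, Gfra2 and Ntrk2 and the rise of Gfra3 in Nav1.7 KO, was not tested.

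The genes whose levels ran closest to each receptor over the 18 arrays were found among 10915 genes above the 40th percentile of mean brightness. For Gfra2 they were Cd34 (Pearson's r 0.95), Vps35l (0.94) and Tmem51 (0.94), and for Ntrk2 Lzts1 (0.93), Spink2 (0.91) and Fam98b (0.90). For Ngfr they were Ndel1 (0.91), Gpr107 (0.90) and Asb1 (0.90), and for Gfra3 Ano10 (0.90), Sh3kbp1 (0.89) and Lgals3 (0.89). For Ret they were Mgat5 (0.85), Ap1s2 (0.82) and Rab27b (0.81), for Gfra1 Stard6 (0.86), Hdhd2 (0.85) and Pcgf5 (0.85), and for Ntrk3 Entpd7 (0.86), Vsnl1 (0.85) and Zfp365 (0.84). Between the receptor genes themselves the closest pairs were Gfra3 with Ngfr (0.79) and Gfra2 with Ntrk2 (0.72). These are descriptions over arrays that share lines and groups. As deviations from group means the same receptor pairs were at 0.52 and 0.35, and the closest pair was Gfra3 with Ntrk3, at 0.65 against -0.43 over the arrays as they stand. On the same footing Stard6 and Hdhd2 were at 0.015 and 0.086 with Gfra1 and Pcgf5 at 0.44, while the 3 genes of Ngfr lay between 0.75 and 0.84 and those of Ntrk3 between 0.71 and 0.82. The genes of Gfra2 lay between 0.49 and 0.56, of Ntrk2 between 0.55 and 0.69, of Gfra3 between 0.50 and 0.70, and of Ret between 0.40 and 0.48.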

How the data were processed

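Gene expression was measured in 18 DRG RNA samples, 3 in each of 6 groups, on Affymetrix whole-genome mouse expression arrays. The authors deposited log2 signal values made with Affymetrix Expression Console, whose summary method, normalization and version are not given in the sources used here, so the values were used as deposited. Of 45101 rows, 64 control probe sets were left out, and of the remaining 45037 probe sets 34945 were named for 1 gene, 932 for several and 9160 were not listed in the annotation used. Each of 18193 genes was represented by its brightest probe set named for that gene alone. Precision was limited by 3 arrays a group.

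Groups came from the sample titles and genotypes, since the source field calls all samples littermate controls. KO minus littermate contrasts and their differences between lines were fitted with limma 3.58.1 in R 4.3.3 (lmFit and eBayes, 6 group means, 12 residual degrees of freedom), with Benjamini-Hochberg adjustment over all genes, or over all probe sets, and a threshold of 0.05. The procedure was tested on simulated data: among 50 genes changed by 0.25 on the log2 scale in each line, 40% were recovered for Nav1.7 KO, 46% for Nav1.8 KO and 42% for Nav1.9 KO, and of 50 changed by 0.585, 92%, 94% and 84%. Every simulated line held more changed genes than the 3 that passed in Nav1.8 KO or the 86 that passed in Nav1.9 KO. Recovery in the real Nav1.8 and Nav1.9 data may therefore be lower. The receptor genes, pathway and marker lists were chosen with earlier results of these data known. Named were every receptor probe set, pathway ligands and other receptors, pathway genes that passed, up to 3 passing genes with the smallest p of each marker list, Runx1, Th, the targeted and sex-linked genes, and the 3 genes closest to each receptor. Alternatives covered the choice of probe set, filters, centring, priors, array weights, array left out, Xist class, a replicate block, thresholds and the one-way analysis of variance of the study. Of the 63 listed pathway genes 12 were not analysed here.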

Additional observations from a re-analysis of the deposited data

Results flagged for a closer look

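The KO effect of 3 receptor genes differed between lines by the limma test of the difference itself. For Gfra3 the effect in Nav1.7 KO, 0.33, was higher than that in Nav1.8 KO, -0.30, by 0.63 (adjusted p = 0.00444), with all 3 Nav1.7 KO arrays above their littermates and a Nav1.8 pair that overlapped. For Gfra3 the effect in Nav1.7 KO was also higher than that in Nav1.9 KO, -0.19, by 0.52 (adjusted p = 0.0128). For Ntrk2 the effect in Nav1.7 KO, -0.25, lay below that in Nav1.9 KO, 0.15, by a difference of -0.40 (adjusted p = 0.00378). For Gfra1 the effect in Nav1.7 KO, 0.08, lay above that in Nav1.9 KO, -0.22, by 0.29 (adjusted p = 0.0463), although neither effect passed on its own. The groups of 3 arrays were too small for a check of single arrays far from their group.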

How the results depend on the processing

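Of 7 receptor genes 4 passed in Nav1.7 KO. The count was 2 with each line fitted alone, 0 by one-way analysis of variance after adjustment, 0 by the study's threshold (unadjusted p under 0.01 with a fold change over 1.5), 1 at an adjusted p of 0.01, and 1 to 4 with single arrays left out. In Nav1.9 KO the count of 1 became 0 with the line alone, with the mean of probe sets, by both analyses of variance and at 0.01, became 2 with a trended robust prior and at 0.1, and was 0 to 1 with arrays left out. For pathway genes the 6 of Nav1.7 KO became 1 with the line alone, 3 with the mean of probe sets, 1 and 0 by the analyses of variance and 0 at 0.01, and ran from 2 to 5 with arrays left out. The 2 of Nav1.9 KO became 0 with the line alone, the mean of probe sets, both analyses of variance and 0.01, and ran from 0 to 2 with arrays left out. The count of receptor genes differing between Nav1.7 and Nav1.8, 1, became 2 with dim probe sets left out, a trended robust prior or array weights, and 0 with the Xist class as a term, which put the Gfra3 difference at 0.50 (adjusted p = 0.104), and was 1 to 2 with arrays left out. Of the 5 probe sets of Nav1.7 KO 1 passed with the line alone, 3 with the Xist class, and 1 to 4 with arrays left out. The 0 of Nav1.9 KO became 1 with dim probe sets left out and 2 with a trended robust prior. Receptor and pathway counts in Nav1.8 KO stayed 0 under all 20 alternatives, and the Gfra3 and Ntrk2 differences between Nav1.7 and Nav1.9 passed under all 21. The Gfra1 difference was lost in 13 of 21. The causes were not tested.

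Deviations from group means of KO and littermate arrays with the same replicate number correlated at -0.19 to 0.27. Arrays with different numbers were not compared, so these values cannot decide whether the numbers pair the samples. With the replicate block Ret (adjusted p = 0.0875) and Gfra2 (0.0573) were lost and Ngfr (0.0418) was gained in Nav1.7 KO, Bdnf (0.0789) and Spry2 (0.0731) were lost there, 0 receptor genes and 0 pathway genes passed in Nav1.9 KO, 3 receptor probe sets passed in Nav1.7 KO, and 2 receptor genes differed between Nav1.7 and Nav1.8.

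Of all values that changed sign, 20, none passed in either setting. With the mean of probe sets these were the Gfra1 difference between Nav1.7 and Nav1.8 (-0.042), the differences between Nav1.8 and Nav1.9 of Ngfr (0.21) and Ntrk3 (0.046), the Ret difference between Nav1.7 and Nav1.9 (-0.017), Gfra1 (0.045) and Ret (0.012) in Nav1.8 KO, and Ntrk3 in Nav1.9 KO (-0.019). The Ngfr difference between Nav1.8 and Nav1.9 also turned with median centring (0.0047) and the Xist class (0.11), and ran from -0.058 to 0.050 with arrays left out. In Nav1.8 KO Gfra2 was -0.023 without probe sets of shared sequence, -0.00751 with the Xist class and -0.0076 to 0.097 with arrays left out, Ngfr was 0.0015 with the Xist class, and Ntrk3 ran from -0.018 to 0.056 with arrays left out. With 3 arrays a group, changes under about 0.25 on the log2 scale could be missed, as the simulated recovery of 40% to 46% shows.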
